A study of Mus musculus with 9 samples.

Results

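The 6 genes described here, Cxcl1, Cxcl2, Cxcl3, Cxcl5, Pf4 and Ppbp, form a cluster of CXC chemokine genes on mouse chromosome 5. For each gene, called peaks of accessible chromatin were taken within the RefSeq gene body and 10 kb on each side, on GRCm38, and a site that fell in the windows of several genes was counted once. The 6 windows held 9 of the 36843 sites of the whole data set, where a site is a run of peaks that overlap by at least 1 bp in any list. Accessible chromatin had been mapped by ATAC-seq, in which Tn5 transposase cuts and tags open DNA, in sorted peritoneal macrophages of 9 mouse samples.

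All mice carried Cx3cr1CreERT2-IRES-EYFP/+ and Rosa26-stopfl-tdTomato/+, so Cre is driven from the Cx3cr1 locus and acts once tamoxifen is given. IL-4 bound to its antibody (5 µg of cytokine, 25 µg of anti-IL4) was injected into all of them every other day over the 4 days before harvest. The monocyte-derived group (3 samples) had 2 ml of thioglycollate, a sterile irritant that recruits monocytes, and was harvested on day 4. The tissue-converted group (3 samples) had 2 ml of thioglycollate and 8 weeks of tamoxifen diet. For the tissue-resident group (3 samples) the labels name no treatment beyond IL-4. The labels state neither age nor sex. The monocyte-derived and converted groups both had thioglycollate, and the labels give a harvest day for the monocyte-derived group only. Between them, origin, time and tamoxifen therefore cannot be told apart. Against the resident group, the irritant is a further difference that cannot be told apart from the others.

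The deposited data are 1 merged peak list per group, without read counts, so no value has a spread between replicates, no test between groups could be made, and the lack of a call can mean closed chromatin or too few reads. The lists differ in length, with 33694 monocyte-derived, 15552 converted and 24348 resident peaks. Macrophage genes fixed as markers had a site for 10 of 10 genes in the monocyte-derived list, 10 in the resident list and 5 in the converted list, where the shares of all genes are 60.2%, 54.0% and 43.2%. Ly6g, S100a9, Retnlg, Camp and Ltf of the 11 neutrophil markers, and Gp9, Gp6 and Gata1 of the 8 platelet and megakaryocyte markers, had no site in any list. A site in the monocyte-derived list was present for 3 of the 11 neutrophil markers, against 5 in the resident and 3 in the converted list. For the 8 platelet and megakaryocyte markers these numbers were 5 monocyte-derived, 3 resident and 4 converted. Of the 5 T and NK cell markers 3 had a monocyte-derived site and none a tissue site, while Cd3e and Ncr1 had none in any list. The part of other cells in the sites below was not tested.

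CXC chemokines are small secreted proteins that guide leukocytes through G protein-coupled receptors. Cxcl1, Cxcl2, Cxcl3 and Cxcl5 encode ligands of Cxcr2 that attract neutrophils, and macrophages of the peritoneal cavity are a known source of Cxcl1 during peritonitis. Pf4 (platelet factor 4, CXCL4) and Ppbp (the precursor of CXCL7) are best known as products of megakaryocytes that platelets store in their granules. In macrophages Cxcl1 and Cxcl2 are textbook early targets of NF-kappaB after Toll-like receptor or IL-1 receptor signalling.

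The promoters show which members share a short sequence match, so the 250 bases before the RefSeq start are printed for 4 of them, 5′ to 3′ on the plus strand (GRCm38.p6). In Cxcl1, Cxcl2 and Cxcl3 capitals mark matches to the NF-kappaB consensus. In Pf4 capitals mark the reverse complement of GAGGAAGT, a sequence bound by PU.1, the myeloid lineage factor.
Cxcl1 (chr5:90890995-90891244): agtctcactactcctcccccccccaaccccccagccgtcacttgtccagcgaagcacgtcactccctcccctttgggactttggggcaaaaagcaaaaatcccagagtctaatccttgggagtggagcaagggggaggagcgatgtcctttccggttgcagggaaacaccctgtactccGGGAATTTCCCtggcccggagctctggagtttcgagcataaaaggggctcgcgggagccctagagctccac
Cxcl2 (chr5:90903649-90903898): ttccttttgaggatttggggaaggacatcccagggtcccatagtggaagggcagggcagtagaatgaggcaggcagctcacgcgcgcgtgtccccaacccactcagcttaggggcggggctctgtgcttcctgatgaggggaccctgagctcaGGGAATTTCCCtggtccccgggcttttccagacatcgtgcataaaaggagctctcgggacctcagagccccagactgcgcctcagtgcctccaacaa
Cxcl3 (chr5:90785851-90786100): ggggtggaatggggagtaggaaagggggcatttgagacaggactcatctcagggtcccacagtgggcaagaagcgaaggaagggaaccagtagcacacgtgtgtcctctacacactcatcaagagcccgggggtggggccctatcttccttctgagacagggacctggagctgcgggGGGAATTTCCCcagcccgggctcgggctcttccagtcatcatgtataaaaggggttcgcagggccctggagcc
Pf4 (chr5:90772185-90772434): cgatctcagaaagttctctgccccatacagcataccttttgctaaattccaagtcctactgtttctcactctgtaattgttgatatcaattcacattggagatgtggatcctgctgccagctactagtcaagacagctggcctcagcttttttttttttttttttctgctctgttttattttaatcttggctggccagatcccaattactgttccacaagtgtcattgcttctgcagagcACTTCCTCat

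Cxcl1, Cxcl2 and Cxcl3 each held the same NF-kappaB match, GGGAATTTCC, which begins 71, 97 and 73 bases before the start respectively. In each of them it overlaps a second match of the consensus on the other strand, so the marked run is 11 bases long. The consensus occurred in 7.25% of 32851 RefSeq promoter windows of this length, on either strand. The exact run GGGAATTTCC, chosen after these promoters had been seen, occurred in 28 of them (0.0852%), among which are these 3 genes. Neither Pf4 nor Ppbp held a match to the consensus. The promoter windows of the 3 genes were otherwise only partly alike, with 54.7% identity between Cxcl2 and Cxcl3 in a global alignment, 50.7% between Cxcl1 and Cxcl3 and 49.7% between Cxcl1 and Cxcl2. For scale, the pairs that do not share the NF-kappaB match ranged from 42.1% (Pf4 and Cxcl3) to 48.6% (Ppbp and Cxcl3).

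Among the other motifs searched on both strands, TATAAA was found in Cxcl3 and Ppbp (12.4% of all promoters). The AP-1 sequence of TGA and TCA with any base between was found in Ppbp alone of the 5 (6.75%). TTGCNNAA, a C/EBP sequence, was found in Pf4 alone (9.56%), as was GAGGAAGT (2.44%), 10 to 3 bases before the start. The STAT6 sequence of TTC and GAA with any 4 bases between (5.85%) and AGATAA, the sequence read by GATA factors (9.99%), were found in none of the 5. A match describes letters and is not evidence of binding.

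The 9 sites, numbered S1 to S9 along the chromosome, included 8 of the monocyte-derived list, 3 of the converted list and 2 of the resident list. Over all sites, 85.5% are in the monocyte-derived, 35.2% in the converted and 55.4% in the resident list, so the monocyte-derived count is near its background. The cluster's sites covered 1225, 500 and 300 bp in these lists. By gene, all 6 had a site in at least 1 list (63.5% of all 21631 protein-coding genes and 35.6% of the 4850 whose body is at most 5 kb, as these 6 all are). Of them, 5 had a monocyte-derived site, against a background of 60.2% of all genes and 33.3% of those with short bodies. A converted site was present for 5 genes (43.2% of all genes) and a resident site for 4 (54.0%). Of the 4850 genes with short bodies, 3837 had no converted site and 3465 no resident site. The cluster's gene counts are not independent, because neighbouring windows share sites. Its 5 converted and 4 resident genes rest on 3 and 2 sites. S2 alone gave Ppbp, Pf4 and Cxcl3 their site in both tissue lists. Monocyte-derived-only sites made up 6 of the 9, or 66.7% (95% Wilson interval 35.4 to 87.9%), where the share over all sites was 39.5%. The interval includes that share, but it covers counting error only and treats the 9 sites as independent. Some of them lie close together, and with peaks within 200 bp merged the 6 became 4. The interval is therefore a description and not a test.

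**Figure D1:**
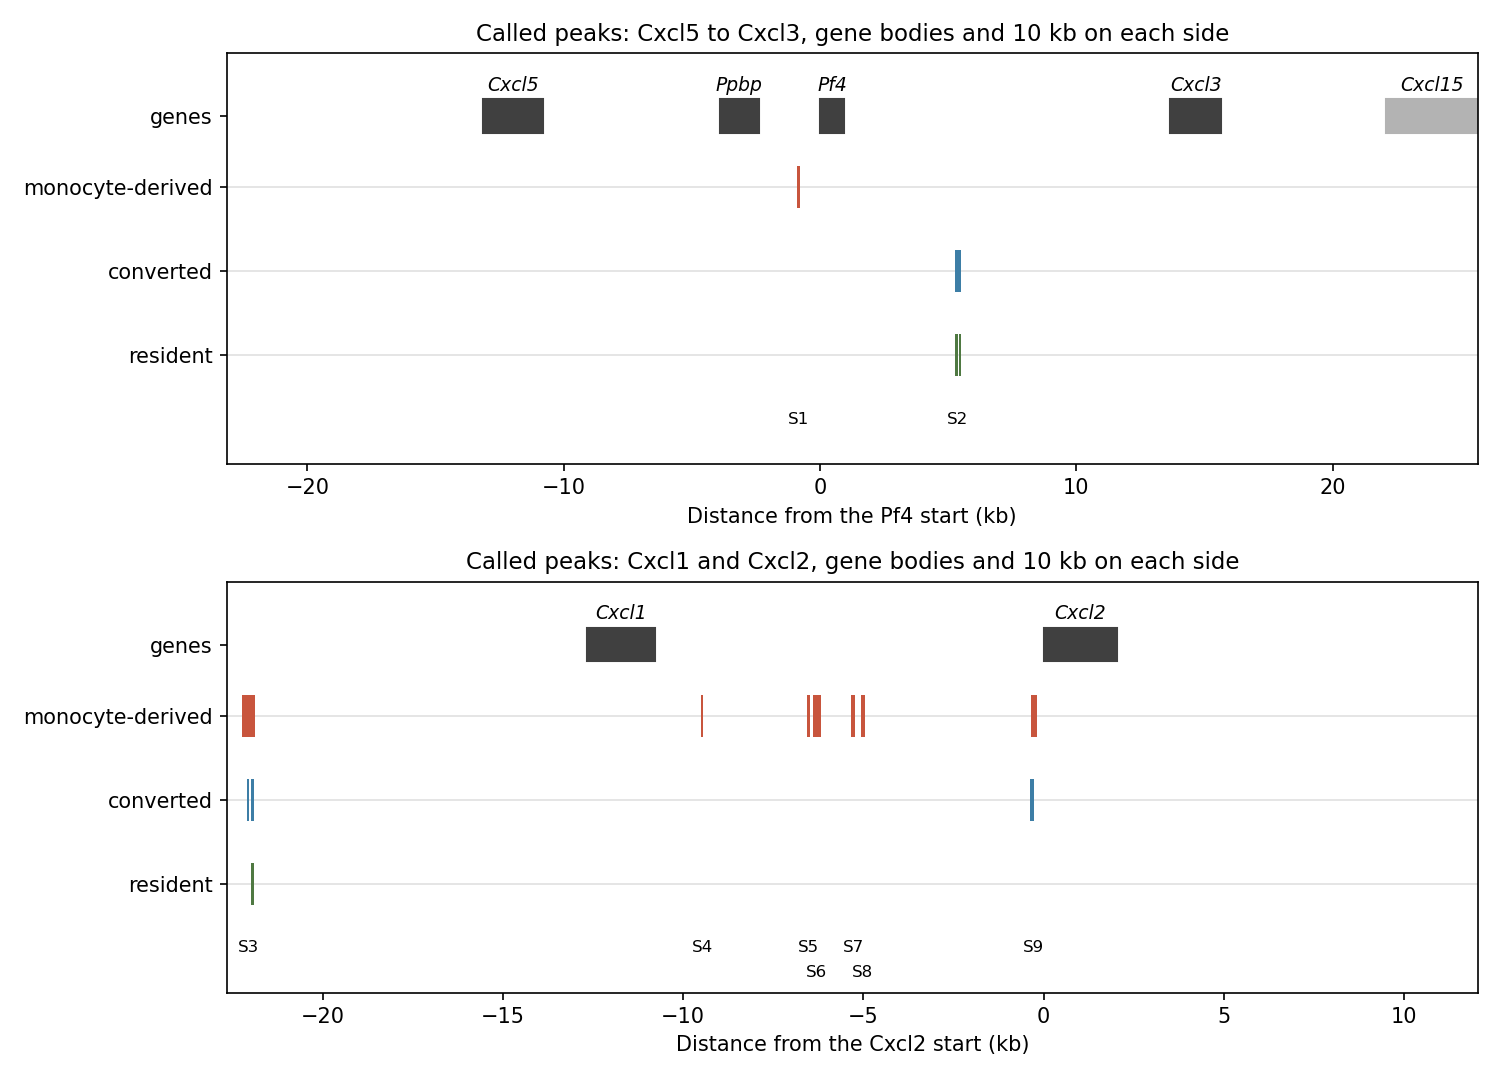
Peaks of the 3 merged lists as boxes to scale along the chromosome, with distance in kb from the Pf4 start (upper panel) or the Cxcl2 start (lower panel), gene bodies in dark grey and Cxcl15, which is not among the 6 genes, in light grey. The upper stretch has S1 in the monocyte-derived list and S2 in both tissue lists, and the lower stretch has 7 monocyte-derived, 2 converted and 1 resident sites.

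The cluster divides at a gap of 103 kb that holds Cxcl15. The stretch from Cxcl5 to Cxcl3 (48.8 kb with flanks) held 2 of the 9 sites, and the stretch of Cxcl1 and Cxcl2 (34.7 kb) held 7. None of the 9 lay in the body of a protein-coding gene. Cxcl15, which encodes lungkine, had no site in its window in any list.

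Cxcl1, which encodes the chemokine known as KC, had 6 monocyte-derived, 1 converted and 1 resident site. Cxcl2, which encodes MIP-2, had 6 monocyte-derived, 1 converted and 0 resident sites. These windows overlap and share 5 sites, S4 to S8, all of the monocyte-derived list only, so the counts of these genes are not independent. Of the 6 genes, 3 had more monocyte-derived than resident sites (background 35.0% of all genes and 19.7% of those with short bodies): Cxcl1, Cxcl2 and Cxcl5. The same 3 had more monocyte-derived than converted sites (45.3% and 25.4%). Cxcl3 alone had fewer monocyte-derived than resident sites (7.59% of all genes) and fewer monocyte-derived than converted sites (1.81%). Cxcl2 alone had more converted than resident sites (4.44% of all genes), and none of the 6 had fewer (29.2%).

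**Figure D2:**
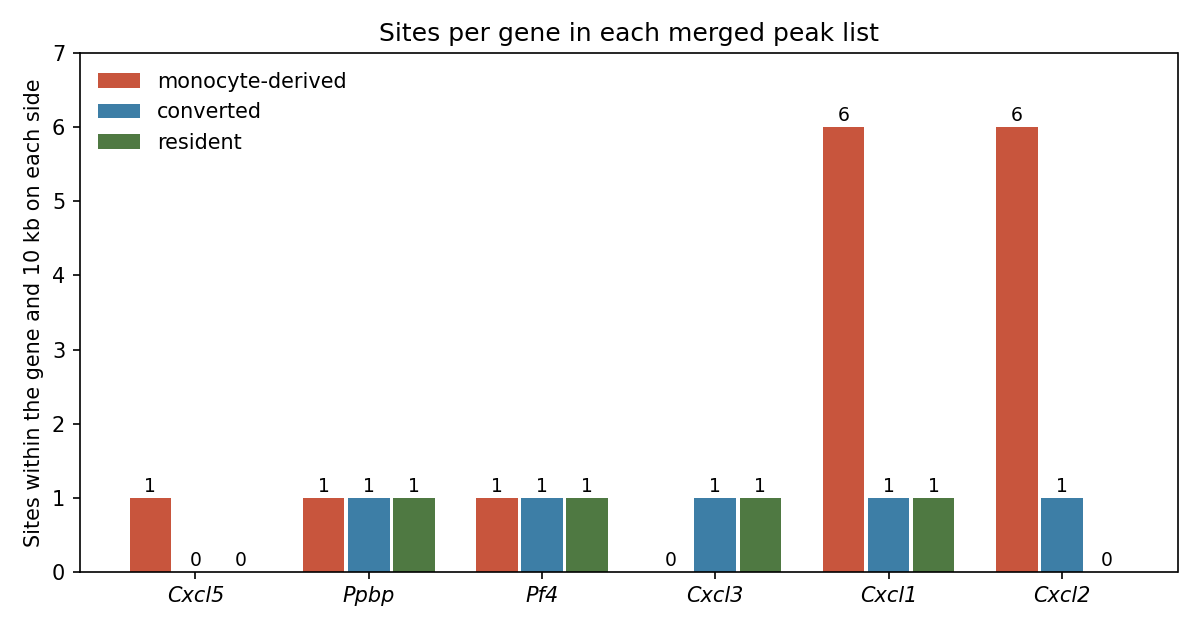
Number of sites within each gene and 10 kb on each side (vertical axis), for the 6 genes in chromosome order and the 3 merged lists (colours). Cxcl1 and Cxcl2 stand at 6 in the monocyte-derived list and at 0 or 1 in the tissue lists, while the other 4 genes have at most 1 site per list, and S4 to S8 count for both Cxcl1 and Cxcl2.

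Of the 6 sites between Cxcl1 and Cxcl2, S4 to S8 lay within 4.55 kb and were in the monocyte-derived list only. S4 (chr5:90894389-90894463, GRCm38) was 1.27 kb past the end of Cxcl1 and had a p-value from the authors' peak calling of 1.01e-05, the largest value in its list. S5 (chr5:90897339-90897413) had 7.89e-06, and 85.2% of monocyte-derived peaks had smaller values. S6 (chr5:90897489-90897713) was the strongest call of the cluster. It was 225 bp wide, where the median monocyte-derived peak was 150 bp, and its p-value lay at the floor of 1e-12, which 18.5% of the peaks of that list reach. Its centre was 6.30 kb before the Cxcl2 start and 6.36 kb after the Cxcl1 start, nearly midway. S7 (chr5:90898564-90898663) had 1.69e-06, with 37.2% of the list smaller. S8 (chr5:90898839-90898938) had 4.13e-06, with 61.3% smaller. Of the calls S4 to S8, thus, 1 stood among the top values of its list, 1 in its stronger part, and 3 were weaker than the list's median of 3.36e-06.

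S9 (chr5:90903514-90903713), the nearest site to any gene start, lay 385 to 186 bases before the start of Cxcl2. It was called in the monocyte-derived and converted lists only, as are 3.56% of all sites. The converted peaks there spanned 90903514 to 90903638 and the monocyte-derived peaks 90903539 to 90903713. The nearest resident peak lay 21.7 kb from the printed Cxcl2 promoter window. Monocyte-derived peaks covered the first 65 of its 250 bases, and converted peaks stopped 11 bases short of it. The NF-kappaB run printed in capitals was covered by no list in Cxcl2, Cxcl1 or Cxcl3, at 0 of its 11 bases in each. Over all RefSeq promoters, a peak overlapped such a window in 28.3% for the monocyte-derived list, 18.2% for the converted list and 22.9% for the resident list. Among the 5 members with a promoter in the table, Cxcl2 in the monocyte-derived list was the only overlap. The smallest p-values of S9 were 1.69e-06 in the monocyte-derived and 6.74e-06 in the converted list, with 37.2% and 77.2% of each list smaller.

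S3 (chr5:90881664-90882013) was the only site called in all 3 lists (28.1% of all sites are). It lay 9.23 kb before Cxcl1 and did not reach the Cxcl2 window. The call was 350 bp wide in the monocyte-derived list, 75 bp in each of 2 converted peaks, and 75 bp in 1 resident peak. The resident peak, 90881914 to 90881988, had the same edges as a converted peak and was the only resident call in the Cxcl1 and Cxcl2 stretch. Its p-value of 3.39e-06 was among the stronger of its list, with 20.9% smaller, while the converted peaks had 6.93e-06 and 9.72e-06, with 81.2% and 90.2% smaller. In the monocyte-derived list S3 had 1.69e-06, with 34.5% smaller.

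**Figure D3:**
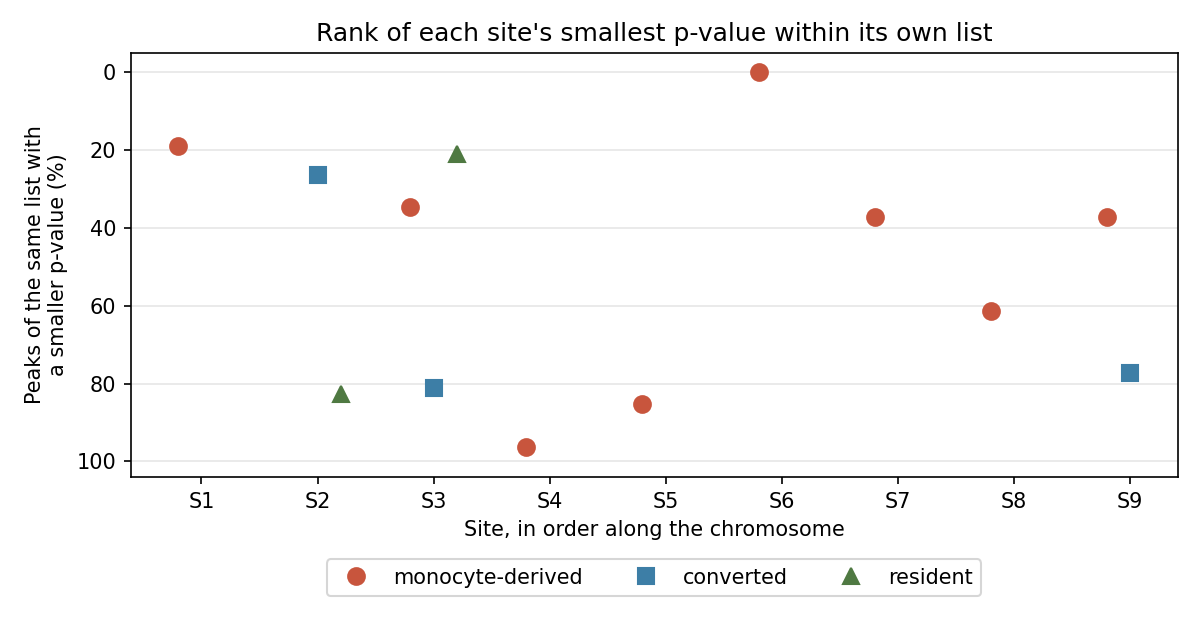
For each site S1 to S9 (horizontal axis), the percentage of peaks in the same list with a p-value smaller than the smallest of that site (vertical axis, reversed so that stronger calls are higher), by list (symbols). S6 stands at 0% in the monocyte-derived list, and S2 stands at 26.3% in the converted but 82.7% in the resident list; ranks are read within a list only.

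Around the platelet chemokine genes the lists had different sites. S1 (chr5:90771539-90771663) was called in the monocyte-derived list only. It lay in the 2.37 kb between Ppbp and Pf4, 896 to 772 bases before the Pf4 start, and its value of 7.44e-09 had 19% of the list smaller. It also reached the outer edge of the Cxcl5 window, 9.91 kb from that gene, and was the only site counted for Cxcl5, which had 1 monocyte-derived, 0 converted and 0 resident sites. S1 lay 0.522 kb from the printed Pf4 promoter window and did not overlap it.

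S2 (chr5:90777689-90777938) was called in both tissue lists and not in the monocyte-derived list, a class that holds 1.94% of all sites. It lay 4.31 kb past the end of Pf4 and 8.16 kb before Cxcl3. The converted peak was 225 bp wide with a value of 1.92e-07, and 26.3% of the list was smaller. The 2 resident peaks, 150 and 75 bp wide, had 1.31e-05 and 1.18e-05, with 93.6% and 82.7% smaller. Both exceed 1e-05, the p-value in the name of the list, so S2 was a converted-only site when p was held at 1e-05 or less in every list. Of all protein-coding genes, 2.56% had a site of this class in their window.

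Pf4 and Ppbp thus had equal counts, 1 in each list, with S1 giving the monocyte-derived count and S2 both tissue counts. Of the 6 genes, Cxcl3, which encodes another Cxcr2 ligand, had only S2 in its window, at 0 monocyte-derived, 1 converted and 1 resident. Genes with the same 3 counts were common for Ppbp and Pf4 (1522 others) and for Cxcl5 (1036), and less so for Cxcl3 (103) and Cxcl1 (23). For Cxcl2 there was a single one, Sh3pxd2b, a scaffold protein gene of podosomes.

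Read against genes of similar size, the Cxcl1 and Cxcl2 counts lay in the upper tail. At least 6 monocyte-derived sites were found in 50 of the 4850 genes with short bodies (1.03%). At least 6 monocyte-derived with at most 1 resident site were found in 7 (0.144%), 2 of which are Cxcl1 and Cxcl2, and in 0.388% of all genes. Tiling the genome with windows of 34.7 kb, at least 5 monocyte-derived-only sites were found in 127 of 73594 (0.173%) and at least 1 resident site in 17.4%. These shares use thresholds set by the members' own counts, with windows placed on the genes, and are a description. With peaks within 200 bp merged, Cxcl1 and Cxcl2 had 4 monocyte-derived sites each, and the shares above do not cover that setting.

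**Figure D4:**
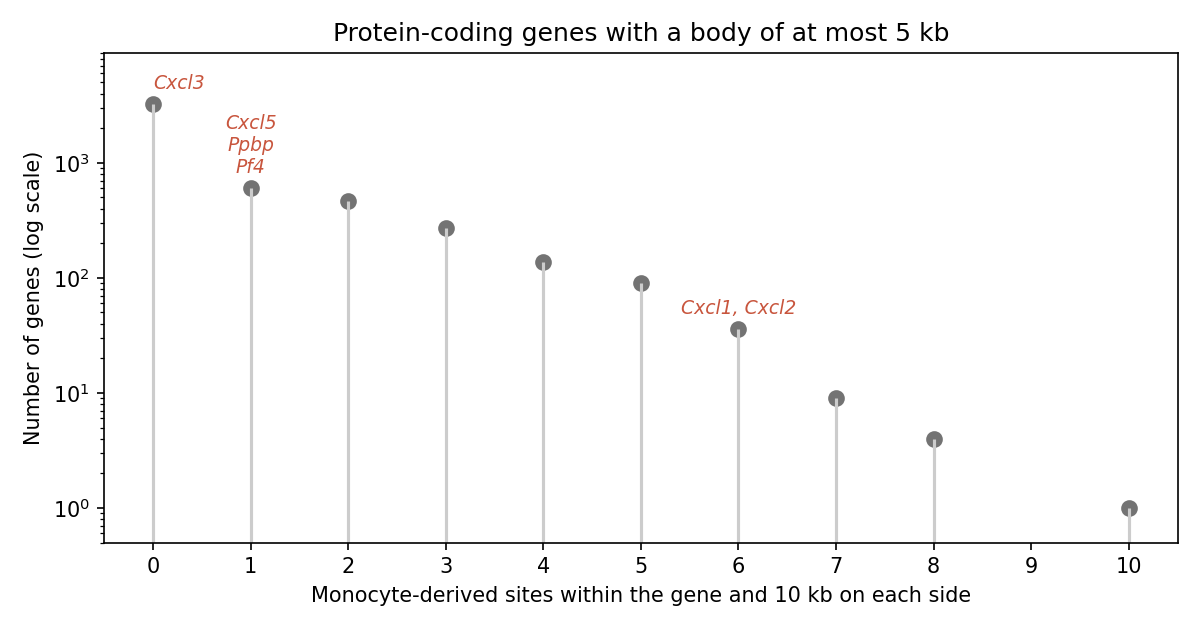
Number of protein-coding genes with a body of at most 5 kb (vertical axis, log scale) by their number of monocyte-derived sites (horizontal axis), with the 6 genes named at their values. Cxcl3 stands at 0 with 3234 genes, Cxcl5, Ppbp and Pf4 at 1 with 600 genes, and Cxcl1 and Cxcl2 at 6 with 36 genes, these counts including the named genes.

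With each list held to its 15552 peaks of smallest p-value, the monocyte-derived list had 5 sites (S1, S3, S6, S7 and S9), the converted list 3 and the resident list 1 (S3). Cxcl1 then had 3 monocyte-derived, 1 converted and 1 resident site, and Cxcl2 had 3, 1 and 0. At least 3 monocyte-derived with at most 1 resident site were then found in 1.15% of the genes with short bodies. More monocyte-derived than resident sites were then found for 5 of the 6 genes (19.8% of all genes), since the resident call of S2 was no longer kept. These 5 genes are not independent, because Cxcl5, Ppbp and Pf4 had S1 as their only monocyte-derived site, and Cxcl1 and Cxcl2 share S6 and S7. Compared with the converted list, 3 genes had more monocyte-derived sites and 1 had fewer. At p of 1e-10 or less S6 alone was left.

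Just outside the windows, 3 more monocyte-derived-only sites lay 13.9 to 14.5 kb before Cxcl1, at chr5:90876664-90876788, chr5:90876939-90877088 and chr5:90877189-90877338. A site of the monocyte-derived and converted lists, chr5:90742064-90742363, lay 16.9 kb before Cxcl5, with values of 1e-12 and 1.92e-07. From the first to the last window, the gap included, the 167 kb held 11 monocyte-derived, 3 converted and 2 resident sites. Windows of that length with at least 11 monocyte-derived sites made up 2.64% of the genome, and those with at least 2 resident sites 30.7%. The nearest site on the far side of Cxcl2, chr5:90931064-90931313 in Mthfd2l, a mitochondrial folate enzyme gene, was called in all 3 lists. Its smallest p-value lay at the floor in each.

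Genes that act with these chemokines were taken as fixed lists. Of 8 other CXC ligand genes matched by symbol, 4 had a monocyte-derived, 1 a converted and 2 a resident site (60.2%, 43.2% and 54.0% of all genes). Cxcl16, which encodes a membrane-bound ligand of Cxcr6, had 3, 0 and 0 in that order, and Cxcl10, an interferon-induced ligand gene of Cxcr3, had 2, 1 and 1. More monocyte-derived than resident sites were found for 3 of the 8 and fewer for none, near the 35.0% and 7.59% of all genes. Their median difference in sites was 0, against 0.5 for the 6 genes of the cluster.

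On the receptor side, Cxcr2, the receptor for the neutrophil-attracting members, had 1 monocyte-derived site and none in the tissue lists. Cxcr1 had none in any list. Cxcr4, the receptor of Cxcl12, had 3 monocyte-derived, 1 converted and 4 resident sites. Of the 8 receptor genes 2 had more monocyte-derived than resident sites and 2 had fewer, against 35.0% and 7.59% of all genes.

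Genes that induce these chemokines or control their mRNA had more monocyte-derived than resident sites in 17 of 19 cases and fewer in none (background 35.0% and 7.59% of all genes). Nfkb1, an NF-kappaB subunit gene, had 12 monocyte-derived, 1 converted and 2 resident sites. Tlr4, the endotoxin receptor gene, had 7, 1 and 3, and Nfkbiz, which encodes an inducible NF-kappaB cofactor, had 5, 4 and 2. Zc3h12a, which encodes an RNase that degrades chemokine mRNA, had 8, 3 and 4, and Il1b, the interleukin-1 beta gene, 1, 0 and 1. At equal list lengths 9 of the 19 had more monocyte-derived than resident sites and 3 had fewer (19.8% and 16.2% of all genes).

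The CC chemokine genes on chromosome 11, had sites of the monocyte-derived list only. Of 11 genes 5 had a site (63.5% of all genes), all from 4 sites of the monocyte-derived list alone, with Ccl6 at 2 and Ccl2, Ccl3, Ccl4 and Ccl9 at 1 each. At equal list lengths none of the 11 had more monocyte-derived than resident sites. The difference between the CXC and CC genes was not tested.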

How the data were processed

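Per the submitters' processing notes, Bowtie2 2.2.9 and the mm10 (GRCm38) build were used. No source used here names the caller, its threshold or the merging of replicates. The authors' deposited lists give each peak a p-value, with a floor of 1e-12, used only to rank or filter within its list. Values above 1e-05 make up 22.5% of resident, 3.76% of monocyte-derived and 0% of converted peaks.

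Sites were peaks merged over the lists when overlapping by at least 1 bp, and a site was counted where it overlapped a gene window. Genes came from RefSeq GRCm38.p6. All 6 genes matched, and 5 had a promoter (not Cxcl5); the 50 bases after the start were left out. Counts per gene were tested on simulated data, with 200 of 200 genes recovered exactly. The genes, lists and comparisons were chosen with earlier results of these data known. All 6 genes are named, and of the fixed lists only genes with a site or bearing on identity. Alternatives were equal list lengths, stricter p-values, flanks of 5 and 20 kb, merging within 200 bp, overlap of 50%, and the nearest gene. Depth is unknown. Python 3.11.15, numpy 2.4.6, biopython 1.88 and matplotlib 3.10.9 were used.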

Additional observations from a re-analysis of the deposited data

How the results depend on the processing

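Of the 10 settings, the one reported included, the monocyte-derived list had the most sites in all 10. That list is also the longest and holds 85.5% of all sites, so this order is not particular to the cluster. Its 8 sites became 5 at equal list lengths and 1 at p of 1e-10 or less, where the converted list had 0, the resident list 0 and the monocyte-derived list only 1. The 2 resident sites became 1 at equal list lengths, 1 at p of 1e-05 or less and 1 with 5 kb on each side. The site of both tissue lists (S2) was lost as such at equal list lengths and at p of 1e-05 or less, since its resident peaks are weak. At p of 1e-10 or less its converted peak, at 1.92e-07, was lost too. Of 162 values per gene, 117 were within 1.5 times the reported value, a measure that counts a 0 that stays 0 and a fall from 6 to 4 as unchanged. With 5 kb on each side Cxcl1 had 3 and Cxcl2 2 monocyte-derived sites, and with each site given to its nearest gene 4 and 3. With peaks within 200 bp merged these genes had 4 each, and the cluster's monocyte-derived-only sites fell from 6 to 4. Cxcl5 had none with 5 kb, by nearest gene, or where a site had to lie wholly inside the window, a setting chosen after seeing the data. No paired analysis was possible because the replicates of a group were deposited as 1 merged list, and for that reason no replicate could be left out. Depth is unknown and limits every absence.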

Other observations

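Beyond Mthfd2l the cluster is followed by genes of the epidermal growth factor family, of which 3 of 4 had a site in some list (63.5% of all genes). Epgn, which encodes epigen, had 0 monocyte-derived, 0 converted and 1 resident site, Ereg, the epiregulin gene, 1, 0 and 0, and Btc, the betacellulin gene, 1 in each list. Areg, which encodes amphiregulin, had none. On the other side Rassf6, 119 kb from Cxcl5, had 4 monocyte-derived, 3 converted and 4 resident sites. Albfm1, 161 kb from Cxcl5, had 1 monocyte-derived, 0 converted and 0 resident sites, while the liver genes Alb, Afp and Afm had none in any list. Mthfd2l itself had 4, 2 and 5.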
